A study of Mus musculus with 10 samples.

Results

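Mitochondrial fusion, fission and mitophagy genes were examined in the hippocampus of nPGC-1α mice, which overexpress PGC-1α in neurons, and of their PGC-1α f/f littermates. The 10 genes were chosen by symbol, and every array probe whose RefSeq accession belongs to one of them was used. They were the fusion genes Mfn1, Mfn2 and Opa1, the fission genes Dnm1l, Fis1 and Mff, and the mitophagy genes Pink1, Bnip3, Fundc1 and Ulk1. They had 17 probes among the 56605 on the array, which carries probes of 23462 named genes, and 15 of the 17 could be tested.

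Total RNA of the hippocampus was hybridised to one-colour Agilent mouse arrays, 5 per group, to ask how neuronal PGC-1α overexpression alters gene expression without any surgery. Both groups were C57BL/6 mice labelled as male and aged 12 weeks, and both carried PGC-1α in the Rosa26 locus behind a floxed PGK-neo-STOP cassette. The nPGC-1α mice also carried Eno2-Cre, which is driven by a neuronal promoter and removes the cassette, and they expressed IRES-eGFP. The PGC-1α f/f littermates lacked Cre. The labels give neuron as the cell type, but the tissue was whole hippocampus: all 5 astrocyte, all 6 oligodendrocyte and all 6 microglia markers examined were well above background on all 10 arrays, as were all 7 markers of hippocampal subfields.

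Mitochondria join and divide continuously. The mitofusins Mfn1 and Mfn2 fuse outer membranes and Opa1 fuses inner membranes, whereas the GTPase Dnm1l (Drp1) is recruited by receptors such as Mff to cut the organelle. In mitophagy, the kinase Pink1 marks damaged mitochondria for removal, Bnip3 and Fundc1 tie mitochondria to the autophagosome, and the kinase Ulk1 starts autophagosome formation. PGC-1α coactivates nuclear receptors of the ERR family and NRF1, which act on nuclear genes of mitochondria, and neurons rely on mitochondrial transport and turnover at synapses.

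Levels are log2 processed intensities relative to the 75th percentile of the array, so that a level of 0 equals this percentile, and differences are nPGC-1α minus PGC-1α f/f. A level of one probe cannot be set against that of another. Spots that the scanner software marked as outliers were left out. Spots well above background made up 74.5% to 81.5% of an array in PGC-1α f/f hippocampus and 67.2% to 73.4% in nPGC-1α hippocampus. Y-linked transcripts were present on 1 PGC-1α f/f array (replicate 1) and 3 nPGC-1α arrays (replicates 1, 3 and 5) and absent or near background on the other 6, although every mouse is labelled as male. Xist, another sex-linked transcript, was at -5.03 on PGC-1α f/f replicate 1 and at -4.91, -5.80 and -5.14 on nPGC-1α replicates 1, 3 and 5. It was at -2.43, -3.00 and -3.11 on PGC-1α f/f replicates 2 to 4 and at -3.04 and -3.28 on nPGC-1α replicates 2 and 4. On PGC-1α f/f replicate 5, which lacked Y-linked transcripts, Xist was at -5.34. The sex of the mice was not tested beyond these values. Medial habenula markers were high on PGC-1α f/f replicate 2 and choroid plexus markers on nPGC-1α replicate 3 and PGC-1α f/f replicate 4. Ppargc1a, which encodes PGC-1α itself, was at 2.20 ± 0.08 in PGC-1α f/f and 2.20 ± 0.11 in nPGC-1α hippocampus (SD, n = 5 each), a difference of 0.00 (SE 0.09, limma adjusted p 0.990). The other probe of this gene had outlier spots on 5 arrays, was left untested, and gave a difference of 0.09 over all its spots. By these probes the mRNA did not set the groups apart, so directions rest on the labels, and whether the probes read the transgene is not known.

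None of the 15 tested probes of the 10 genes passed an adjusted p of 0.05 with limma, against 1 of 39142 probes over the whole array (0.00255%). The smallest adjusted p was 0.367. At an unadjusted p of 0.05, 1 of the 15 probes, a Pink1 probe, was higher in nPGC-1α hippocampus, against a background of 3.39% of all probes, and 0 were lower, against 8.52%. Of the 10 member probes with a value on every array, 0 had groups that did not overlap, against 2.74% of all such probes. The median difference of the 15 probes was -0.01, with 7 differences above 0 and 8 below, and that of all probes tested was -0.04. Beside these values, the mean of the 5 excitatory neuron markers ran from -0.34 to 0.08 in PGC-1α f/f and from 0.01 to 0.18 in nPGC-1α hippocampus, relative to the mean of all arrays. It differed by 0.25 (two-sided exact permutation p 0.0159, adjusted 0.175 over 11 marker lists). The mean of the 6 oligodendrocyte markers ran from -0.48 to 0.06 and from -0.24 to 0.40, a difference of 0.31 (exact permutation p 0.103, adjusted 0.378). That of the 6 microglia markers ran from -0.15 to 0.13 and from -0.13 to 0.02, a difference of -0.12 (exact permutation p 0.103, adjusted 0.378). The part of these lists in the members' differences was not tested. In bulk tissue, fewer cells of a type and less RNA per cell cannot be told apart.

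The intervals show how large a change these arrays leave possible. With one probe per gene, the brightest of those tested, differences ran from -0.18 for Fundc1 to 0.25 for Mfn2, which is 0.882-fold to 1.19-fold. For Mfn2 this was the only tested probe, since a brighter one was left untested for its outlier spots. The limma 95% interval, taken probe by probe, lay within 1.5-fold of no change for 9 of the 10 genes, and that of Mfn2 reached just past it, to 0.59 on the log2 scale. Over the 15 probes, 12 intervals lay within 1.5-fold and 14 within 2-fold, and the Pink1 probe that reached 2.33-fold was the exception. Standard errors ran from 0.08 to 0.29. The signs of differences this small depended on the scaling: 7 of 15 probes were above 0 with the 75th percentile, 8 with the authors' log2 values, 10 after quantile normalisation and 13 after normexp background correction with quantile normalisation. Among all probes at an unadjusted p of 0.05, 71.5% were lower with the 75th percentile, 66.9% with the authors' values, 41.5% after quantile normalisation and 35.9% after normexp. The medians of all probes under these settings were -0.04, -0.03, 0.03 and 0.04.

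**Figure D1:**
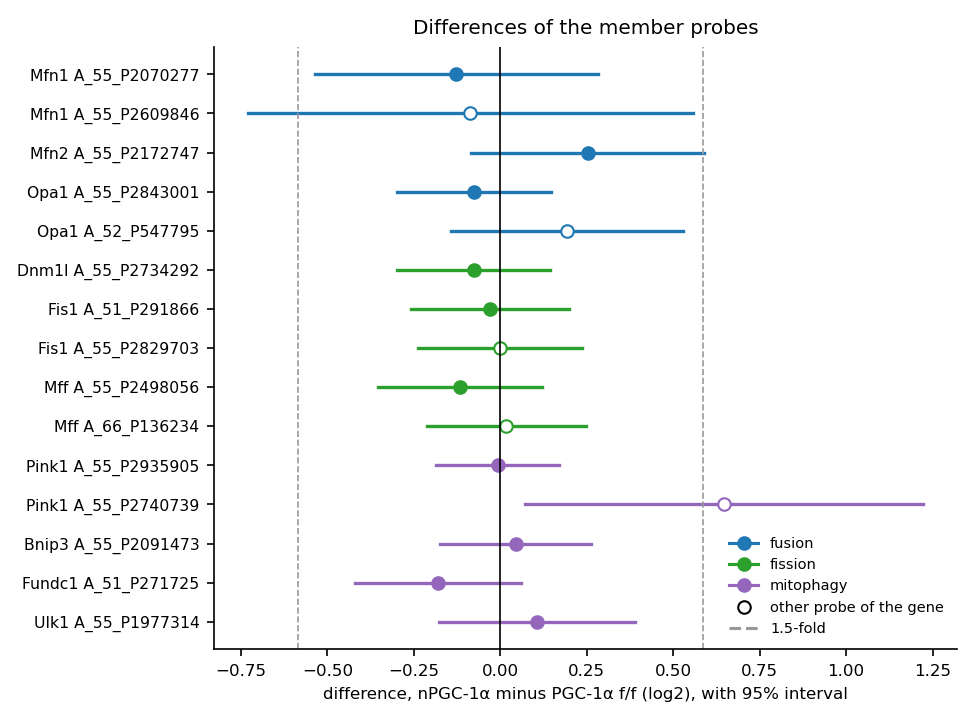
Difference between nPGC-1α and PGC-1α f/f hippocampus (log2, horizontal axis) for each of the 15 tested probes, with its limma 95% interval. Filled points are the tested probe with the highest signal of a gene, open points its other probe, colours mark the role, and dashed lines mark 1.5-fold. The interval of Pink1 probe A_55_P2740739, 0.07 to 1.22, is the one that does not include 0.

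Among fusion genes, the tested Mfn2 probe had the widest gap between group means. Mfn2 is a mitofusin that also tethers mitochondria to the endoplasmic reticulum. Its probe A_55_P2172747 was at 0.50, 0.23, 0.94, 0.97 and 1.055 on PGC-1α f/f replicates 1 to 5, and at 1.03, 0.92, 0.99, 1.03 and 0.99 on nPGC-1α replicates 1 to 5. PGC-1α f/f replicates 1 and 2 were low, the other 3 lay at 0.94 or above, and the groups overlapped. The difference was 0.25 (SE 0.15, interval -0.08 to 0.59, limma adjusted p 0.540). The same PGC-1α f/f arrays, replicates 1 and 2, had the lowest mean of the 5 excitatory neuron markers, at -0.26 and -0.34 relative to the mean of all arrays. This mean lay at -0.09 to 0.08 on the other 3 PGC-1α f/f arrays, whereas all 5 nPGC-1α arrays were at 0.01 to 0.18. All 5 of these markers were well above background on every array. They did not all follow their mean: Camk2a was at 3.79 and 3.71 on PGC-1α f/f replicates 1 and 2, beside a PGC-1α f/f mean of 3.69. The part of these markers in the Mfn2 difference was not tested. Without PGC-1α f/f replicate 2 the Mfn2 difference was 0.13, and on the 4 arrays with Y-linked transcripts alone, of which 1 was PGC-1α f/f, it was 0.50.

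The second Mfn2 probe, A_51_P266774, which was the brighter, was marked as an outlier spot on 4 arrays and was not tested. Its remaining values were 1.15, 1.59, 1.67 and 2.00 on PGC-1α f/f replicates 2 to 5 and 1.62 and 1.76 on nPGC-1α replicates 4 and 5. PGC-1α f/f replicate 2 was again the lowest. The remaining values differed by 0.09, in the direction of the tested probe. With all spots kept, this probe differed by -0.04 (two-sided exact permutation p 0.810, n = 5 per group), so its direction depended on the outlier spots.

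Mfn1, the other mitofusin, was at 0.78, 0.93, 0.83 and 1.12 on PGC-1α f/f replicates 2 to 5 and at 0.13, 0.87, 0.98, 0.93 and 1.03 on nPGC-1α replicates 1 to 5 (probe A_55_P2070277). The spot of PGC-1α f/f replicate 1 was an outlier. The value of nPGC-1α replicate 1 stood below all others, and the remaining arrays of both groups lay between 0.78 and 1.12. The difference was -0.13 (SE 0.18, interval -0.54 to 0.28, limma adjusted p 0.803), and without nPGC-1α replicate 1 it was 0.04.

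A dimmer Mfn1 probe, A_55_P2609846, was at -4.09, -4.29, -4.15, -4.42 and -5.81 on PGC-1α f/f replicates 1 to 5 and at -4.94, -4.47, -4.49, -4.53 and -4.76 on nPGC-1α replicates 1 to 5. Here PGC-1α f/f replicate 5 stood apart, 4 of the PGC-1α f/f arrays lay above all nPGC-1α arrays, and replicate 5 lay below them. The difference over all arrays was -0.09 (SE 0.29, limma adjusted p 0.923). Without PGC-1α f/f replicate 5 it was -0.40 (unadjusted limma p 0.00921), and on slide 1 alone, which holds replicates 1 to 4 of both groups, it was -0.37 (unadjusted limma p 0.0220). Neither reached an adjusted p of 0.05, and across all 23 alternatives its smallest adjusted p was 0.228.

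Opa1 remodels cristae besides fusing inner membranes. Its probe A_55_P2843001 was at 2.20, 1.91, 1.80, 2.00 and 2.17 on PGC-1α f/f replicates 1 to 5 and at 2.03, 1.89, 1.82, 1.90 and 2.06 on nPGC-1α replicates 1 to 5. The nPGC-1α arrays lay inside the range of the PGC-1α f/f arrays, and the difference was -0.08 (SE 0.10, interval -0.30 to 0.15, limma adjusted p 0.782). The second probe, A_52_P547795, was at -1.44 to -0.96 in PGC-1α f/f and at -1.29 to -0.66 on the 4 nPGC-1α arrays with a value, a difference of 0.19 (SE 0.15, limma adjusted p 0.635). The disagreement between the probes was 0.27 (two-sided exact permutation p 0.222, adjusted 0.370 over the 5 genes with a pair of tested probes). The mean of both Opa1 probes differed by 0.06.

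**Figure D2:**
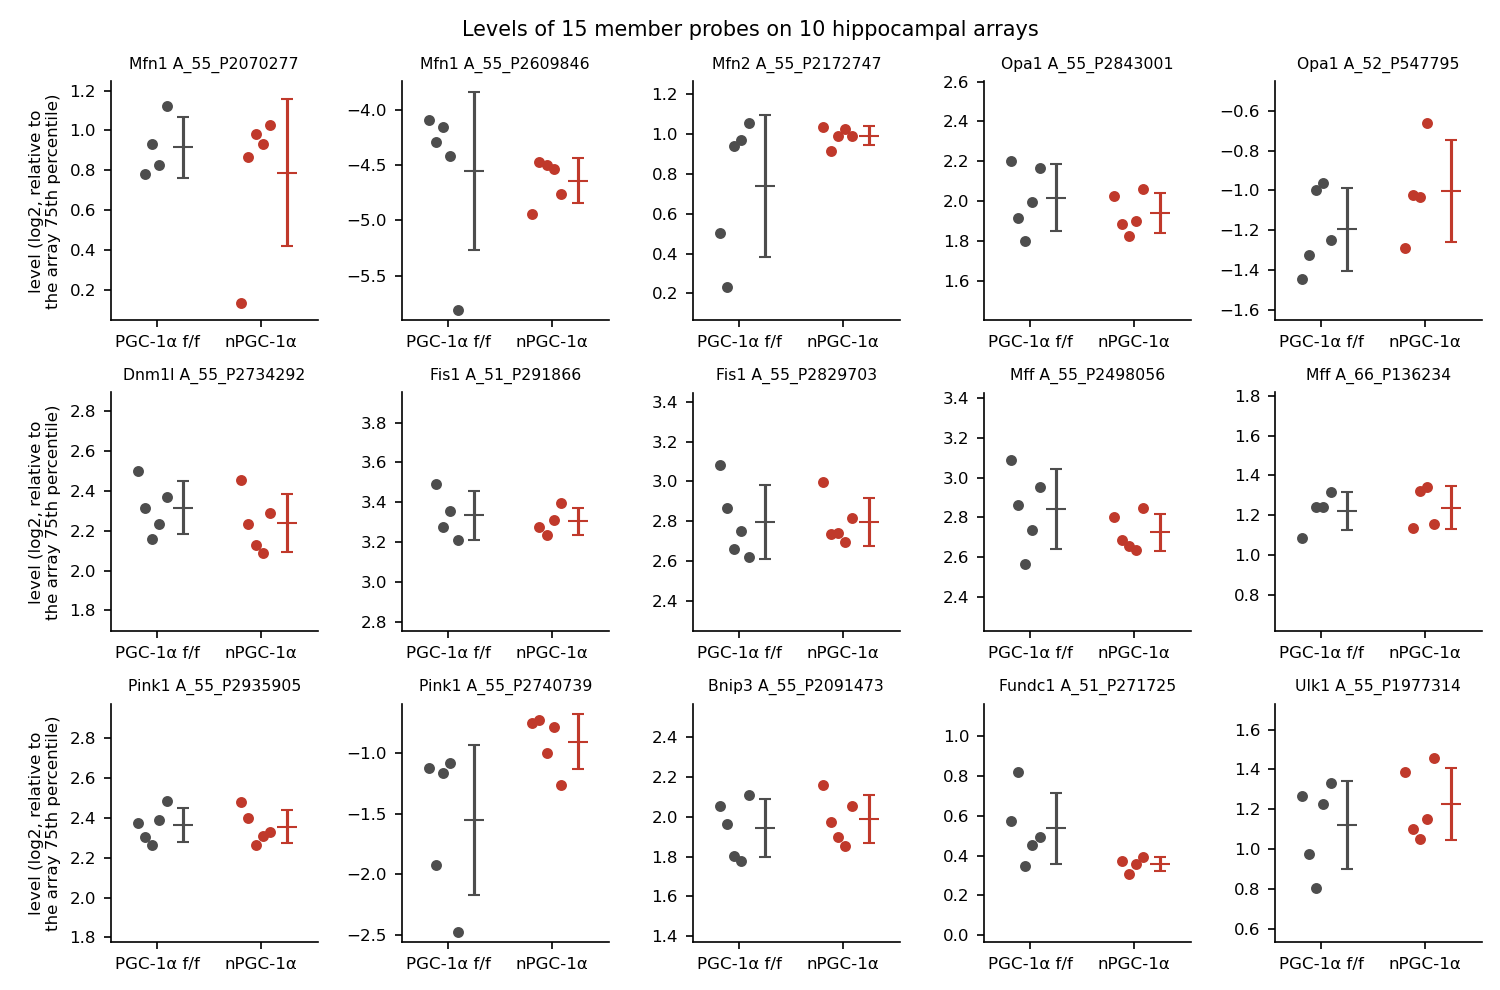
Levels of the 15 tested probes on the PGC-1α f/f (grey) and nPGC-1α (red) arrays, as log2 intensity relative to the 75th percentile of the array. Points are arrays in order of replicate number, and bars are the group mean ± SD. The groups overlap in every panel with all 10 values, and the single low points in the Mfn1 panels are nPGC-1α replicate 1 (0.13) and PGC-1α f/f replicate 5 (-5.81).

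Every probe of the fission genes differed by 0.12 or less in size between the groups. Dnm1l, the GTPase that constricts the mitochondrion, was at 2.50, 2.32, 2.16, 2.23 and 2.37 on PGC-1α f/f replicates 1 to 5 and at 2.45, 2.24, 2.13, 2.09 and 2.29 on nPGC-1α replicates 1 to 5. Replicate 1 was the highest in both groups, and the difference was -0.08 (SE 0.10, interval -0.30 to 0.14, limma adjusted p 0.781).

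Mff, the outer membrane receptor of Dnm1l, was at 3.09, 2.86, 2.56, 2.74 and 2.95 on PGC-1α f/f replicates 1 to 5 and at 2.80, 2.69, 2.66, 2.64 and 2.85 on nPGC-1α replicates 1 to 5 (probe A_55_P2498056). The nPGC-1α values again fell within the PGC-1α f/f range, with a difference of -0.12 (SE 0.11, interval -0.35 to 0.12, limma adjusted p 0.687). Its second probe, A_66_P136234, ran from 1.09 to 1.32 in PGC-1α f/f and from 1.14 to 1.34 in nPGC-1α hippocampus on 4 arrays each and differed by 0.02 (limma adjusted p 0.957).

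Fis1, an outer membrane protein of fission, had a pair of bright probes that gave the same picture. Probe A_51_P291866 ran from 3.21 to 3.49 in PGC-1α f/f and from 3.23 to 3.39 in nPGC-1α hippocampus on 4 arrays each, a difference of -0.03 (SE 0.10, interval -0.26 to 0.20, limma adjusted p 0.927). Probe A_55_P2829703 ran from 2.62 to 3.08 and from 2.70 to 3.00, a difference of 0.00 (SE 0.11, limma adjusted p 1.00). The sign of the first probe turned under 3 other scalings, which gave 0.08 to 0.12.

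Among mitophagy genes, the Pink1 probes differed from each other. Probe A_55_P2740739 was at -1.12, -1.93, -1.17, -1.08 and -2.47 on PGC-1α f/f replicates 1 to 5 and at -0.75, -0.73, -1.001, -0.79 and -1.26 on nPGC-1α replicates 1 to 5. PGC-1α f/f replicates 2 and 5 were low, all 5 nPGC-1α arrays lay above the PGC-1α f/f mean, and the groups overlapped because nPGC-1α replicate 5 lay below 3 PGC-1α f/f arrays. The means were -1.55 ± 0.62 and -0.91 ± 0.23 (SD, n = 5 each), and the difference was 0.65 (SE 0.26, interval 0.07 to 1.22, unadjusted limma p 0.0311, adjusted p 0.367). A two-sided exact permutation test gave p 0.0476 and the exact Mann-Whitney test named in the methods gave p 0.0556.

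The brighter Pink1 probe, A_55_P2935905, was at 2.37, 2.31, 2.27, 2.39 and 2.48 on PGC-1α f/f replicates 1 to 5 and at 2.48, 2.40, 2.26, 2.31 and 2.33 on nPGC-1α replicates 1 to 5. The groups covered nearly the same range, and the difference was -0.01 (SE 0.08, interval -0.19 to 0.17, limma adjusted p 0.977), the narrowest interval of the 15 probes. The disagreement between the Pink1 probes was 0.65 (two-sided exact permutation p 0.0317, adjusted 0.159 over 5 genes), and the mean of both probes differed by 0.32 (exact permutation p 0.0635).

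The difference of the dimmer Pink1 probe kept its sign under all 23 alternatives, and its unadjusted p was 0.05 or above under 8 of them. It was 0.42 without PGC-1α f/f replicate 5 and 0.55 without PGC-1α f/f replicate 2. With slide as a block it was 0.65 (unadjusted limma p 0.00569), on slide 1 alone it was 0.51, and slide 2 holds 1 array per group, at -2.47 and -1.26. It was 0.62 with presence of Y-linked transcripts as a block, and 0.11 on the 4 arrays with Y-linked transcripts alone. Leaving out PGC-1α f/f replicate 2 and nPGC-1α replicate 3 together, the arrays with the highest habenula and choroid plexus markers, gave 0.58 (unadjusted limma p 0.0926). The part of these arrays in the difference was not tested beyond these values.

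**Figure D3:**
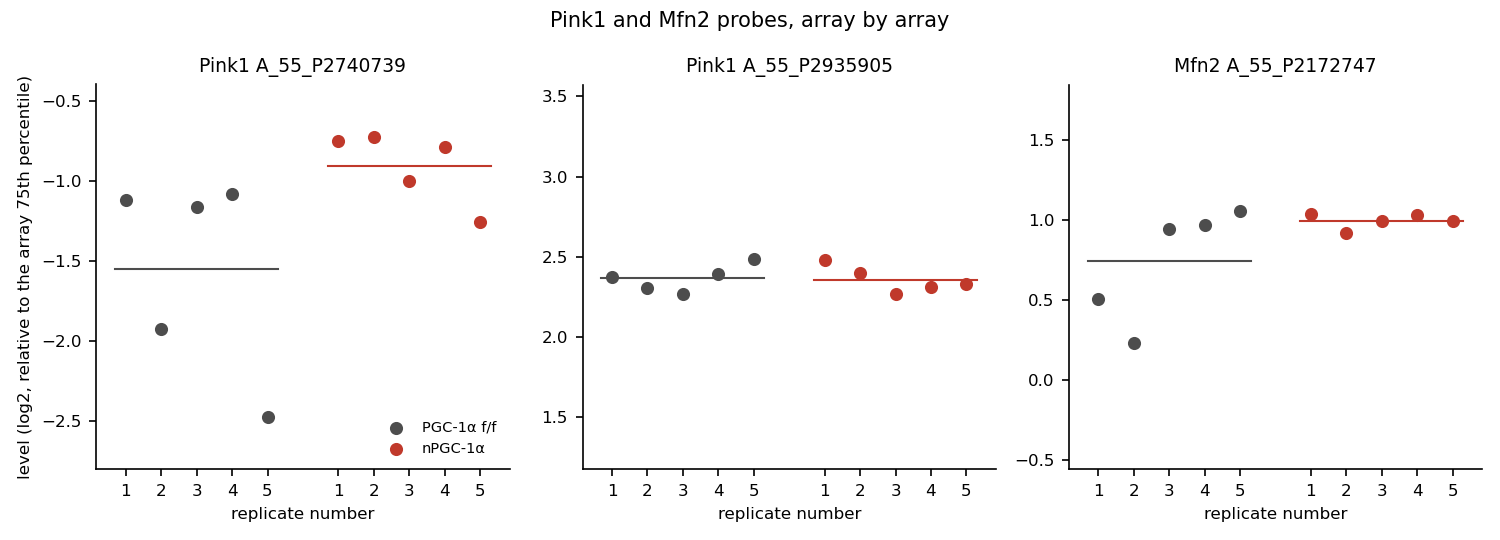
Levels (log2 intensity relative to the 75th percentile of the array) of both Pink1 probes and the tested Mfn2 probe on each array, by replicate number. Horizontal lines are group means and each vertical axis spans the same number of log2 units. PGC-1α f/f replicates 2 (-1.93) and 5 (-2.47) are low for the dimmer Pink1 probe, and PGC-1α f/f replicates 1 (0.50) and 2 (0.23) for Mfn2.

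Fundc1, an outer membrane receptor of mitophagy, had the most negative difference of the 15 probes. Its probe A_51_P271725 was at 0.57, 0.82, 0.35, 0.46 and 0.49 on PGC-1α f/f replicates 1 to 5 and at 0.37, 0.31, 0.36 and 0.39 on nPGC-1α replicates 2 to 5. All 4 nPGC-1α values lay below the PGC-1α f/f mean, and the groups overlapped through PGC-1α f/f replicate 3. The difference was -0.18 (SE 0.11, interval -0.42 to 0.06, limma adjusted p 0.537), and the two-sided exact permutation test gave p 0.0794. It ranged from -0.26 to -0.09 under 22 alternatives and did not change sign. Fundc1 lies on chromosome X. The part of the uneven presence of Y-linked transcripts in its difference was not tested beyond these alternatives.

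Bnip3, a receptor that is known as a hypoxia target, was at 2.06, 1.96, 1.80, 1.78 and 2.11 on PGC-1α f/f replicates 1 to 5 and at 2.16, 1.98, 1.90, 1.86 and 2.05 on nPGC-1α replicates 1 to 5. The groups overlapped almost fully, with a difference of 0.04 (SE 0.10, interval -0.17 to 0.26, limma adjusted p 0.877).

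Ulk1 was at 1.27, 0.98, 0.81, 1.23 and 1.33 on PGC-1α f/f replicates 1 to 5 and at 1.39, 1.10, 1.05, 1.15 and 1.46 on nPGC-1α replicates 1 to 5 (probe A_55_P1977314). Both groups spanned similar ranges, with a difference of 0.11 (SE 0.13, interval -0.18 to 0.39, limma adjusted p 0.761). The second Ulk1 probe, A_55_P2736170, was well above background on 2 PGC-1α f/f arrays and on 0 nPGC-1α arrays, at -8.33 to -6.64 and -7.32 to -6.64, and was not tested.

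The member probes varied more among PGC-1α f/f than among nPGC-1α mice. The SD was larger in PGC-1α f/f for 11 of the 15 probes (73.3%), and over all probes tested for 25946 of 39142 (66.3%), a similar share. Member probes were mostly bright, and 7 of the 15 lay in decile 10, the highest, of mean signal, where the median difference of all probes was -0.06.

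Genes whose deviations from the group means tracked a member most closely across arrays were listed for Fundc1 and Mfn2, the members with the lowest unadjusted p on their highest-signal tested probe. For Fundc1, over the 9 arrays with a value, these were Spidr (Pearson r 0.984), Catsperg2 (0.969) and Dennd6a (0.953), and 29 of 21305 probes had an r above 0.9. For Mfn2, over 10 arrays, these were Fto (0.984), Iars (0.972) and Rbm19 (0.968), and 101 of 21304 probes had an r above 0.9. The dimmer Pink1 probe had a lower p than either and was added after its values were seen. Over 10 arrays its closest genes were Nck1 (0.984), Tmem213 (0.982) and Exd2 (0.979), and 217 of 21303 probes had an r above 0.9. These values describe arrays that share 2 slides and a few low arrays, such as PGC-1α f/f replicates 1 and 2 for Mfn2.

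The wider pathway was covered by a list of 75 further genes of fusion, fission, mitophagy and autophagy, of which 73 were tested with 124 probes (Gabarap and Wipi2 had no testable probe). At an adjusted p of 0.05, 0 of these probes passed, and at an unadjusted p of 0.05, 5 were higher in nPGC-1α hippocampus and 2 lower, beside the 3.39% and 8.52% of all probes given above. The median difference of the 124 probes was 0.00, and 64 were above 0. With one probe per gene, the medians were -0.06 for 14 genes of fusion and the inner membrane, -0.09 for 12 fission genes, -0.01 for 20 genes of mitophagy receptors and the Parkin pathway, and 0.02 for 27 genes of the autophagy machinery.

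Spire1, an actin nucleator with an isoform that acts in mitochondrial fission, had the lowest p of the wider list. It was at -0.38, -0.58, -0.39, -0.70 and -0.35 on PGC-1α f/f replicates 1 to 5 and at -0.99, -0.94, -1.32, -1.21 and -0.96 on nPGC-1α replicates 1 to 5. All 5 nPGC-1α arrays lay below all 5 PGC-1α f/f arrays, and it was the 1 probe of the 89 wider probes with all values to do so, beside the 2.74% of all such probes given above. The difference was -0.60 (SE 0.11, interval -0.85 to -0.36, limma adjusted p 0.0947), and it ranged from -0.71 to -0.46 under 23 alternatives. Its adjusted p was below 0.05 under 1 of these, the test without a filter on dim probes (0.0289), and reached 1.00 after normexp correction. Without that filter its unadjusted limma p was 0.000383, against 0.000210 in the main test. There 4619 of all probes passed an adjusted p of 0.05, against 1 in the main test. Whether this probe reads the mitochondrial isoform is not known.

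Optn, a mitophagy receptor that binds ubiquitin, was at -0.77, -0.93, -0.82 and -0.92 on PGC-1α f/f replicates 2 to 5 and at -0.64, -0.48, -0.67 and -0.69 on nPGC-1α replicates 2 to 5. These 4 values per group did not overlap, and the difference was 0.24 (SE 0.10, unadjusted limma p 0.0346, adjusted p 0.379). The smallest exact permutation p for 4 against 4 is 0.0286, beside 0.00794 for 5 against 5. The share of all probes without overlap given above covers only probes with 10 values. Its other probe differed by 0.18. Of the 73 genes, 2 passed an unadjusted p of 0.05 on the highest-signal tested probe, beside 8.52% lower and 3.39% higher of all probes. They were Spire1 (lower) and Optn (higher). The next 10 by p were Atg5 (-0.20), Prkaa2 (0.17), Tfeb (0.15), Rb1cc1 (-0.19), Becn1 (0.32), Pld6 (-0.28), Pik3r4 (0.29), Nipsnap2 (-0.23), Src (0.23) and Vdac1 (-0.13), each with an adjusted limma p above 0.05. Atg5, Becn1, Rb1cc1 and Pik3r4 act in autophagosome formation, and Prkaa2 encodes a catalytic subunit of AMPK. The other Tfeb probes differed in the opposite direction, by -0.14 and -0.17.

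The other 5 wider probes at an unadjusted p of 0.05 were not the highest-signal probes of their genes and are named after their values were seen. Probes of Marchf5 (0.23), Src (0.40), Dnm2 (0.44) and Mtfr1l (0.62) were higher in nPGC-1α hippocampus and another probe of Dnm2 was lower (-0.27), with adjusted limma p from 0.339 to 0.415. Dnm2 is a dynamin, and these Dnm2 probes differed in opposite directions. The highest-signal tested probes differed by 0.04 for Marchf5, 0.23 for Src, 0.10 for Dnm2 and -0.12 for Mtfr1l, the last in the opposite direction. A further tested probe differed by 0.46 for Marchf5 and by 0.19 for Mtfr1l. The Mtfr1l probe that differed by 0.62 was at -3.08, -2.60, -1.69, -1.65 and -2.86 on PGC-1α f/f replicates 1 to 5. It was at -1.61, -1.83, -1.59, -1.70 and -2.06 on nPGC-1α replicates 1 to 5. PGC-1α f/f replicates 2 and 5 were thus low for this probe as for the dimmer Pink1 probe, together with replicate 1. The Dnm2 probe that differed by 0.44 was likewise low on PGC-1α f/f replicates 1, 2 and 5, at -1.87, -2.01 and -1.89. It was at -1.14 and -1.12 on replicates 3 and 4.

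**Figure D4:**
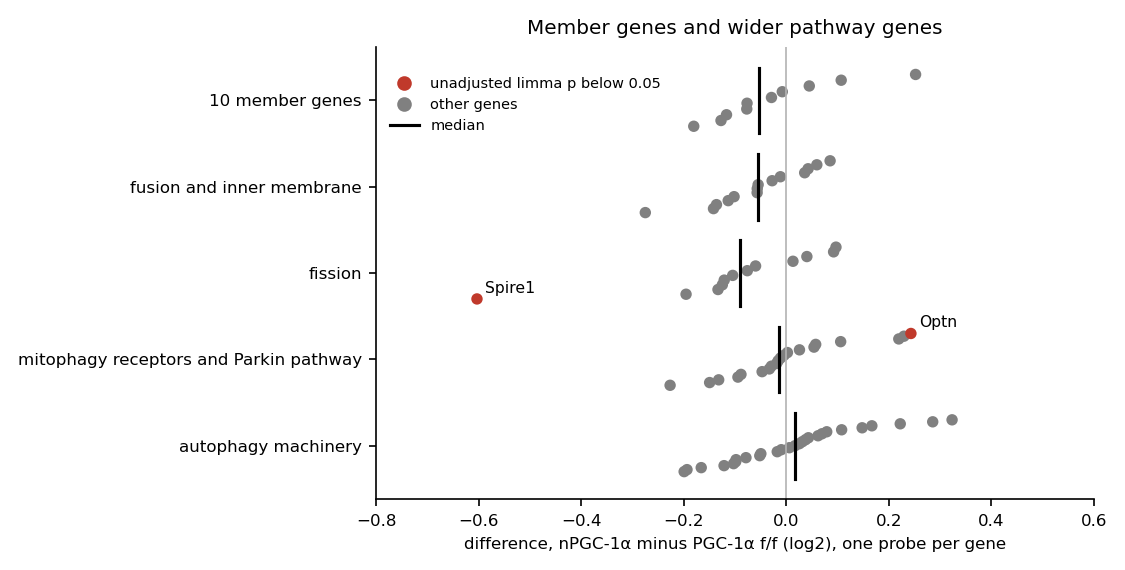
Difference between nPGC-1α and PGC-1α f/f hippocampus (log2, horizontal axis) of the 10 member genes and 73 wider pathway genes, one point per gene on its highest-signal tested probe, in rows by list. Black lines are medians and red points have an unadjusted limma p below 0.05. Spire1 (-0.60) lies apart from the other genes, Optn is at 0.24, and the medians of the wider lists lie between -0.09 and 0.02.

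Promoters of the members were searched on both strands for letters bound by factors linked to PGC-1α, hypoxia or autophagy. The windows, from RefSeq (GRCm38.p6), ran from 250 bases before to 50 bases after each start, and all 10 genes matched, with 15 windows. The ERR letters TCAAGGTCA were in 0 of the 15 windows (0.423% of 32851 mouse promoters of this length) and the shorter AAGGTCA, which TCAAGGTCA contains, in 0 (4.72%). The cAMP response letters TGACGTCA were in 0 (1.79%), and the lysosomal gene letters TCACGTGA were in 0 (0.974%). The NRF1 letters GCGCATGC were in 1 window, of Opa1 (2.71%). The hypoxia letters ACGTG, which TCACGTGA also contains, were in 3 windows of Bnip3 and Mfn2 (19.6%). The Mfn2 windows with these letters overlap and hold the same site. The bases before the start of Opa1, Bnip3 and Mfn2 are shown because they hold the matches, with the matched letters in capitals. A match is a description of the sequence and says nothing of binding in these mice. The windows are Opa1 at chr16:29579084-29579333 on the plus strand, Bnip3 at chr7:138909507-138909756 on the minus strand and Mfn2 at chr4:147904662-147904911 on the minus strand. In Opa1 the matches of both strands overlap, and in Bnip3 they form the palindrome CACGTG.
Opa1: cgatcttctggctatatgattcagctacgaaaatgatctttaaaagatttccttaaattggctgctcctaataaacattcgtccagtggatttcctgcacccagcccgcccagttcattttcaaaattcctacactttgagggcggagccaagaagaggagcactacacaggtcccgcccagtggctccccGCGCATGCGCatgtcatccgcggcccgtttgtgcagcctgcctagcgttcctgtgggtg
Bnip3: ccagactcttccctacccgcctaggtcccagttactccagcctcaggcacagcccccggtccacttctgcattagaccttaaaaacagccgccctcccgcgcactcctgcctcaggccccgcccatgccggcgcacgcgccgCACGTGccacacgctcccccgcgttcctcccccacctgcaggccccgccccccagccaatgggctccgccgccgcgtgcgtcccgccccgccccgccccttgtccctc
Mfn2: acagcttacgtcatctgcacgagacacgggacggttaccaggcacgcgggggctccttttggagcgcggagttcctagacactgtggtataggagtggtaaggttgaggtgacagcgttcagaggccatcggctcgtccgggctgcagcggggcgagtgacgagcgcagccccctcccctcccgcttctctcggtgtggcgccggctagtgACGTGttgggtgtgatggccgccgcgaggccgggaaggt

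As given above, the highest-signal tested probe of Opa1, with the NRF1 letters, differed by -0.08 between the groups, and those of Bnip3 and Mfn2, with the hypoxia letters, by 0.04 and 0.25. None of these had an adjusted limma p below 0.05. The GC content of the member windows before the start was 46% to 72.4%.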

How the data were processed

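Groups and replicate numbers came from the labels. Each deposited scanner file gives an intensity for every spot, made by Feature Extraction 11.5.1.1 per the file headers, with the background subtracted and no normalisation between arrays. The log2 values in a table the authors deposited for these arrays were an alternative. How its probes were chosen is not given in the sources used here.

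Control and outlier spots were left out, spots of a probe were averaged on the log2 scale, and the 75th percentile of each array was subtracted. No spot was saturated. Probes that were well above background throughout at least 1 group, with at least 3 values per group, were tested (39142 of 56605). RefSeq symbols (GRCm38.p6) named 33767 probes (59.7%). No probe coordinates are given, because the array was designed on another build. The methods name no test for the arrays beyond a Mann-Whitney test between groups. The test here was limma 3.58.1 in R 4.3.3 (lmFit, eBayes, two-sided, no covariates), with Benjamini-Hochberg adjustment over all probes. Single values used exact permutation tests, whose smallest p for 5 against 5 is 0.00794. Python 3.11.15, pandas 2.3.3 and scipy 1.17.1 served elsewhere. On simulated data of this comparison over 39142 probes, 72.5% of 200 log2 changes of 1 and 95.5% of changes of 2 were recovered, with 10 and 12 unchanged probes called in these runs and 0 in a run without any change. The simulated noise was independent between probes and had the same spread in both groups, unlike these arrays. Changes as small as those of the members were not simulated.

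Text names every member and its probes, Ppargc1a, the 12 wider genes with the lowest p, those whose groups did not overlap, and the closest genes of the 2 members with the lowest p on their highest-signal tested probe. The members and lists were chosen with earlier results of these data known. Each mouse gave 1 array, and the number of arrays limits the precision. The alternatives were quantile normalisation, the authors' values, normexp (offset 50, on median pixel intensities), other filters, slide, replicate number or Y-linked class as a block, a variance trend, the Mann-Whitney test, and leaving out each array. Leaving out the 2 arrays with the highest habenula and choroid plexus markers was chosen after seeing the data.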

Additional observations from a re-analysis of the deposited data

Results flagged for a closer look

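Of 35 groups of values examined for a single array far from the rest, 2 had one, where chance gives about 1 in 20 (1.75 of 35). Both were of Mfn1. On probe A_55_P2070277, nPGC-1α replicate 1 was at 0.13 and the other nPGC-1α arrays at 0.87 to 1.03. On probe A_55_P2609846, PGC-1α f/f replicate 5 was at -5.81 and the other PGC-1α f/f arrays at -4.42 to -4.09. The probes did not share the array that stood apart.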

How the results depend on the processing

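With limma, 0 member probes passed an adjusted p of 0.05 under every alternative run. Of 340 differences of member probes under an alternative, 302 kept their sign and their side of an adjusted p of 0.05, and 38 changed sign. At an unadjusted p of 0.05, the count of member probes was 1, and it was 2 on slide 1 alone, and 0 with Y-linked class as a block, on arrays with Y-linked transcripts alone, without both tissue-marked arrays (PGC-1α f/f replicate 2 and nPGC-1α replicate 3) and by the exact Mann-Whitney test. Leaving out one array gave 0 to 1. It was 0 without PGC-1α f/f replicate 2 or nPGC-1α replicate 1, 2 or 4, and without PGC-1α f/f replicate 5 the 1 probe was Mfn1 A_55_P2609846 in place of Pink1.

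In the wider list, the count at an adjusted p was 0, and 2 without a filter on dim probes (Spire1 and Mtfr2, the latter not well above background on any array). The count at an unadjusted p was 7, 1 without both tissue-marked arrays and 2 to 12 leaving out one array. Over all probes, the 1 call at an adjusted p became 0 with normexp, with probes well above background on all arrays, with slide, replicate number or Y-linked class as a block and with a variance trend. It became 3 on arrays with Y-linked transcripts alone, 4619 without a filter on dim probes, and 0 to 4 leaving out one array. At an unadjusted p, 4662 became 2710 after quantile normalisation, 1823 with normexp, 10748 without a filter, 2157 without both tissue-marked arrays, and 3100 to 6028 leaving out one array.

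Deviations from the group means correlated at r 0.08 to 0.36 between same-numbered mice of the groups. Between differently numbered mice r ran from -0.28 to 0.24. The labels do not say that the numbers pair mice, and the main test left them unpaired. With replicate number as a block, 0 member probes passed an adjusted p, 1 passed an unadjusted p, and 6485 of all probes did.

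Signs changed as follows. On slide 1 alone, Ppargc1a turned to -0.037, Fis1 A_55_P2829703 to -0.048 and Pink1 A_55_P2935905 to 0.029. With Y-linked class as a block, Ppargc1a turned to -0.034, Fis1 A_55_P2829703 to -0.089 and Bnip3 A_55_P2091473 to -0.0067. On arrays with Y-linked transcripts alone, Ppargc1a turned to -0.12, Fis1 A_55_P2829703 to -0.23 and Bnip3 A_55_P2091473 to -0.020. After quantile normalisation, Mfn1 A_55_P2070277 turned to 0.021, Fis1 A_51_P291866 to 0.092 and Pink1 A_55_P2935905 to 0.057. With normexp, Mfn1 A_55_P2070277 turned to 0.059, Opa1 A_55_P2843001 to 0.0051, Dnm1l A_55_P2734292 to 0.0095, Fis1 A_51_P291866 to 0.12, Mff A_55_P2498056 to 0.00034 and Pink1 A_55_P2935905 to 0.12. With replicate number as a block, Mfn1 A_55_P2070277 turned to 0.036. With the authors' values, Fis1 A_51_P291866 turned to 0.075, Mff A_66_P136234 to -0.067 and Pink1 A_55_P2935905 to 0.030. Without both tissue-marked arrays, Fis1 A_51_P291866 turned to 0.048, Mff A_66_P136234 to -0.0096 and Pink1 A_55_P2935905 to 0.00059. With outlier spots kept, Mff A_66_P136234 turned to -0.076. With the mean of tested probes, Opa1 turned to 0.056 and Pink1 to 0.32. Leaving out one array, the differences that crossed 0 ran from -0.024 to 0.040 for Ppargc1a, -0.19 to 0.036 for Mfn1 A_55_P2070277, -0.40 to 0.029 for Mfn1 A_55_P2609846, -0.071 to 0.024 for Fis1 A_51_P291866, -0.050 to 0.071 for Fis1 A_55_P2829703, -0.027 to 0.052 for Mff A_66_P136234 and -0.038 to 0.022 for Pink1 A_55_P2935905. The cause was not tested.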
